A study of Mus musculus with 10 samples.

Results

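The SMYD genes encode 5 lysine methyltransferases in the mouse, Smyd1 to Smyd5. All 5 symbols were found among the 22878 gene symbols of the RNA-Seq files, on 6 of 29257 transcript rows, since Smyd1 has 2 rows. They were measured in 10 libraries of polyA RNA from R1 cells, a mouse embryonic stem (ES) cell line that carried a lentiviral short hairpin RNA under puromycin selection. The hairpin of the control cells (shLuc) targets luciferase and that of the knockdown cells (shSmyd5) targets Smyd5. Each hairpin was sampled in ES cells grown with LIF on gelatin after feeder cells were passaged off. The paper gives a GSK3 inhibitor in its gelatin medium, which it describes for ChIP experiments. Each hairpin was also sampled in embryoid bodies (EBs, aggregates that differentiate in suspension without LIF) at 24 h and on days 6, 10 and 14. Each pairing of hairpin and stage gave 1 library, so no single stage has a replicate check. The study used 3 hairpins against Smyd5, and the one sequenced is not named in the labels.

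SMYD proteins carry a SET domain, the fold that transfers a methyl group from S-adenosylmethionine to lysine, and it is split in sequence by a zinc-binding MYND domain, which binds proline-rich partners. SMYD1 belongs to heart and skeletal muscle, where it serves myofibre assembly. SMYD2 and SMYD3 methylate cytosolic and nuclear proteins, among them p53, HSP90 and MAP3K2, besides histones. SMYD4 is the least studied and has TPR repeats. SMYD5 has been tied to trimethylation of histone H4 lysine 20, a mark of heterochromatin.

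The proteins translated from the longest coding transcripts of GENCODE M1 had 490 (Smyd1), 433 (Smyd2), 428 (Smyd3), 799 (Smyd4) and 416 (Smyd5) residues. In pairwise alignments identical residues made up 23.3% (Smyd1 with Smyd5) to 33.6% (Smyd2 with Smyd3) of the shorter protein, and the 4 pairs with Smyd5 reached at most 29.1%. The core motif, asparagine and histidine followed after 1 residue by cysteine and then after 1 more by proline and asparagine, occurred 1 time in each protein. Its coding bases are shown because they encode a motif that the 5 proteins have in common, and the last codon of each stretch lies past it. Capitals mark the codons of the leading asparagine, the histidine and the cysteine. Those of the proline and the later asparagine are in lower case. Each stretch is 24 bases, read 5′ to 3′ on the coding strand of mm9, the build of all positions given here.
Smyd1: AACCATgatTGCtggccaaactgc
Smyd2: AATCACagcTGCtgcccgaatgtc
Smyd3: AATCACagcTGTgaccccaactgc
Smyd4: AACCACtccTGCaggcccaacacc
Smyd5: AACCACagcTGTgtccccaacgcg
They lie in exon 4 of Smyd1 at chr6:71187374-71187397, on the minus strand, in exon 7 of Smyd2 at chr1:191712760-191712783, minus strand, and in exon 7 of Smyd3 at chr1:181023063-181023086, minus strand. Those of Smyd4 lie in exon 6 at chr11:75213180-75213203 and those of Smyd5 in exon 11 at chr6:85394239-85394262, both on the plus strand. The motif histidine and cysteine of Smyd5 are residues 315 and 317. The longest run of bases that any pair of these transcripts had in common was 13, so the members do not share near-identical stretches through which reads could be split.

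Levels are given in RPKM, reads scaled to transcript length in kilobases and to library size, which allows comparison between genes. The shallowest library, of shLuc ES cells, held 3895537 reads in genes, and the deepest, of day 6 in shLuc, held 43377815. The 95% intervals come from the exact Poisson distribution of a gene's reads, or for folds from the exact binomial distribution of its reads in both libraries, and they cover counting error only. A fold is the shSmyd5 value over the shLuc value in log2 after 0.1 was added to both RPKM values, so it understates differences of low genes. No exon of another annotated gene overlapped the exons of a member, on either strand, which matters because the libraries hold no strand. The 7 ES cell markers, Pou5f1 and Nanog among them, summed to 3121 and 2445 RPKM in shLuc and shSmyd5 ES cells and to 117.8 and 55.9 on day 14, and all 7 stood at an RPKM of at least 1 in all 10 libraries. In that sum Dppa5a held 1130 in shLuc and 1290 in shSmyd5 ES cells, and Pou5f1 held 929.8 and 329.3. So the markers moved in both directions there. Of 6 fibroblast genes that would mark feeder cells, 1 reached an RPKM of 1 in each ES cell library.

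Smyd5, the gene the hairpin targets, was lower in shSmyd5 than in shLuc at all 5 stages, but the amount left differed widely. It lies on the plus strand at chr6:85381983-85396429 with 13 exons. In shLuc it had an RPKM of 29.7 (414 reads) in ES cells, 10.7 (511) at 24 h, 15.4 (2475) on day 6, 25.0 (1895) on day 10 and 13.1 (1269) on day 14. In shSmyd5 it had 4.51 (444 reads), 0.891 (93), 0.492 (79), 9.14 (356) and 6.88 (671) in the same order. The RPKM values of the hairpins lay apart, with the highest shSmyd5 value, of day 10, under the lowest shLuc value, of 24 h. The counting intervals of these libraries overlapped, at 8.21 to 10.1 and 9.77 to 11.6. The share of all genes with such a gap was not counted.

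The level left in shSmyd5 was 15.2% of that in shLuc in ES cells (13.2% to 17.4%), 8.35% at 24 h (6.62% to 10.4%) and 3.20% on day 6 (2.53% to 4.0%). It was 36.6% on day 10 (32.6% to 41.0%) and 52.5% on day 14 (47.7% to 57.6%). None of these intervals overlapped another, so counting error does not cover the differences among stages. In log2 the folds were -2.69, -3.44, -4.71, -1.44 and -0.92. Among genes that reached an RPKM of 3 with either hairpin, ordered from the lowest fold, Smyd5 stood at place 20 of 9329 in ES cells, 35 of 8354 at 24 h and 29 of 9461 on day 6, but at place 274 of 10576 on day 10 and 510 of 10476 on day 14.

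The effect of shSmyd5 shared over the stages was tested on the reads of 12277 genes whose mean RPKM was 1 or more, with edgeR's quasi-likelihood test, the stage as a term and Benjamini-Hochberg adjusted p-values. The error in this test is the disagreement of the 5 stages. The labels do not say whether the stages came from separate transductions, so the p-values measure only the spread between these libraries. The shared log2 fold of Smyd5 was -2.63 (standard error 0.51, lower in 5 of 5 stages), with an unadjusted p of 0.000366 and an adjusted p of 0.107, past no threshold of 0.05. With DESeq2 the adjusted p of Smyd5 was 1.06e-06. edgeR called 0 of 12277 genes (0%), with 1425 at an unadjusted p under 0.05, limma called 0 and DESeq2 called 333 (2.71%). Over the alternatives the adjusted p of Smyd5 ran from 1.06e-06 to 1.00, the last without the stage in the model, and passed in 2 of 12.

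Across the control EBs Smyd5 was highest in ES cells and lowest at 24 h, a ratio of 2.79, and the intervals of no neighbours in the order ES cells, day 10, day 6, day 14, 24 h overlapped. In shSmyd5 the order was day 10, day 14, ES cells, 24 h and day 6, a ratio of 18.6, again without overlap. The test for any difference among the 5 stages over both hairpins gave Smyd5 an adjusted p of 0.167 in edgeR. It was 0.0479 in DESeq2, 0.0348 in limma and 0.0432 in edgeR without both libraries of day 14. EB day 14 over ES cells gave a log2 fold of -0.17 over both hairpins with an edgeR adjusted p of 0.864, and the hairpins moved in opposite directions, from 29.7 to 13.1 RPKM in shLuc and from 4.51 to 6.88 in shSmyd5.

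**Figure D1:**
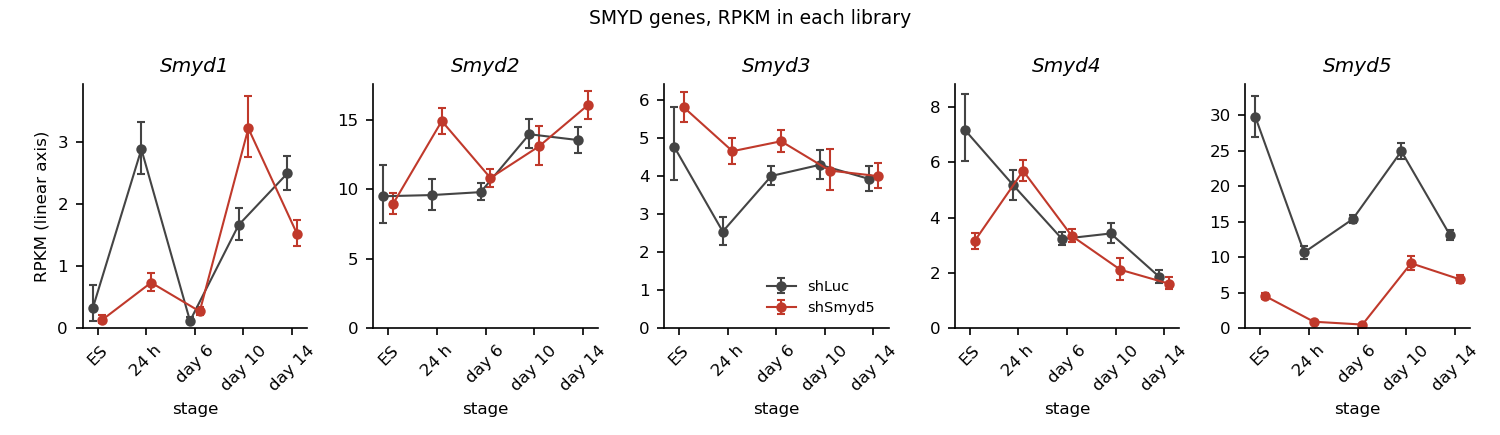
RPKM (vertical axis, linear, own scale in each panel) of Smyd1 to Smyd5 at 5 stages (horizontal axis, ordered and not to time scale) in shLuc (grey) and shSmyd5 (red), 1 library a point, with exact Poisson 95% intervals. Smyd5 lies between 10.7 and 29.7 in shLuc and between 0.492 and 9.14 in shSmyd5, and the other 4 genes show no such gap.

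Of the other 4 genes none passed the shared test, and none was on the same side of shLuc at all 5 stages. The means of the 5 stage folds were -0.33 ± 1.16 for Smyd1, 0.17 ± 0.30 for Smyd2, 0.28 ± 0.35 for Smyd3 and -0.37 ± 0.54 for Smyd4 (SD, n = 5 stages), against -2.64 ± 1.53 for Smyd5. Each mean of the 4 was smaller than its SD. The edgeR adjusted p-values of the shared effect were 0.901, 0.704, 0.585 and 0.694, and no alternative brought one of them past 0.05. A gene counted as different at a stage when its fold was at least 1.5 and it reached an RPKM of 3 with either hairpin. By this rule 2 of 4 measured members differed in ES cells, beside 42.8% of all genes measured there. It was 3 of 4 at 24 h beside 40.1%, 1 of 4 on day 6 beside 53.3%, 3 of 5 on day 10 beside 26.5%, and 1 of 3 on day 14 beside 22.2%. Smyd5 made 1 of these at each stage. The median log2 fold of genes that reached an RPKM of 3 with both hairpins was -0.27 on day 6 and 0.14 at 24 h, and within 0.05 of 0 at the other stages.

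Folds in these libraries also moved with base composition and length, so the value less a spline trend on both is given beside each. The trend was fitted on genes that reached an RPKM of 3 with either hairpin. Smyd1 outside day 10 and Smyd4 on day 14 lay below that level. Smyd2 (GC content 55.8%) and Smyd5 (54.7%) lie higher in GC than Smyd1, Smyd3 and Smyd4, at 49.9%, 48.8% and 50.8%. The trend at the GC content and length of Smyd5 came to -0.53 in ES cells, 0.58 at 24 h and -0.34 on day 6, and its fold less the trend was -2.16, -4.02, -4.37, -1.23 and -1.12 in stage order.

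**Figure D2:**
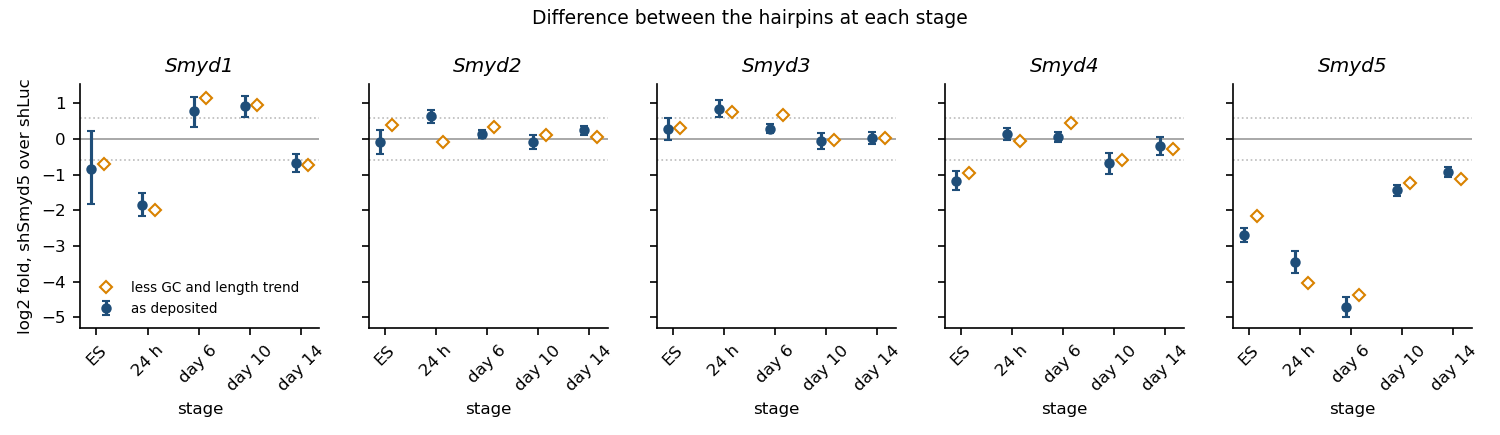
Log2 fold of shSmyd5 over shLuc (vertical axis, RPKM plus 0.1) at each stage (horizontal axis) for the 5 genes. Filled points carry exact binomial 95% intervals, open diamonds are the same folds less the trend on GC content and length, and dotted lines mark 1.5-fold. Smyd5 lies under the lower line at all 5 stages, from -0.92 to -4.71, and Smyd1 lies on both sides of 0.

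Smyd2, the methyltransferase of p53 and HSP90, was the most abundant member in all shSmyd5 libraries. Its highest and lowest stages lay 1.47-fold apart in shLuc and 1.79-fold apart in shSmyd5. It has 12 exons on the minus strand at chr1:191704371-191746242. In shLuc it had an RPKM of 9.49 (85 reads) in ES cells, 9.57 (295) at 24 h, 9.78 (1014) on day 6, 13.9 (682) on day 10 and 13.5 (843) on day 14. In shSmyd5 the values were 8.95 (567 reads), 14.9 (1001), 10.8 (1117), 13.1 (328) and 16.03 (1007). Day 10 and day 14 lay above the 3 earlier stages in shLuc, with intervals apart, while ES cells, 24 h and day 6 did not differ beyond counting error. The edgeR adjusted p was 0.312 for any difference among stages, and 0.197 for day 14 over ES cells, a log2 fold of 0.57 with a standard error of 0.35. At 24 h Smyd2 stood 0.63 higher in shSmyd5 (0.45 to 0.82 in log2), the stage at which it passed 1.5-fold. The trend for genes of its GC content and length was 0.72 there, and the fold less the trend was -0.088. At the other stages its fold was -0.08 in ES cells, 0.14 on day 6, -0.09 on day 10 and 0.24 on day 14, and less the trend 0.40, 0.33, 0.11 and 0.07, so the sign in ES cells and on day 10 turned.

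Smyd3 methylates MAP3K2 and was first described as a histone H3 lysine 4 methyltransferase. Its highest and lowest stages lay 1.88-fold apart in shLuc and 1.45-fold apart in shSmyd5. It spans 12 exons at chr1:180882091-181448172 on the minus strand. Its RPKM in shLuc was 4.76 (100 reads) in ES cells, 2.53 (183) at 24 h, 3.99 (970) on day 6, 4.29 (491) on day 10 and 3.92 (572) on day 14. In shSmyd5 it was 5.79 (860 reads), 4.64 (731), 4.90 (1188), 4.14 (243) and 3.99 (587). The shLuc library of 24 h stood below the others, and the other 4 shLuc stages overlapped their neighbours. In ES cells the fold was 0.28 (-0.02 to 0.58), or 0.31 less the trend, and at 24 h it was 0.85 (0.62 to 1.08), or 0.77 less the trend. On day 6 it was 0.29 (0.17 to 0.41), 0.67 less the trend and 0.56 relative to the median of all genes. On days 10 and 14 the folds were -0.05 and 0.03, or -0.02 and 0.01 less the trend, and their intervals held 0. Neither stage test passed, with edgeR adjusted p-values of 0.506 and 0.283.

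Smyd4, the member with TPR repeats, ended lower on day 14 than in ES cells with both hairpins. In shSmyd5 it first rose to a peak at 24 h. It lies on the plus strand at chr11:75161935-75219207 with 11 exons. In shLuc its RPKM was 7.18 (141 reads) in ES cells, 5.17 (349) at 24 h, 3.23 (733) on day 6, 3.43 (367) on day 10 and 1.85 (253) on day 14. In shSmyd5 it was 3.15 (437 reads), 5.69 (838), 3.34 (756), 2.11 (116) and 1.61 (221). Day 14 was lowest with both hairpins, and its 2 libraries lay below the other 8. The difference among stages had an edgeR adjusted p of 0.00904, and day 14 over ES cells a log2 fold of -1.61 (standard error 0.45, adjusted p = 0.0137, lower with both hairpins). Both passed in all alternatives, the first with adjusted p-values from 0.000167 to 0.0485. In ES cells Smyd4 stood lower in shSmyd5, at 43.8% of shLuc (36.2% to 53.4%), a log2 fold of -1.16, or -0.95 less the trend. On day 10 it stood at 61.6% (49.6% to 76.1%), a log2 fold of -0.67, or -0.59 less the trend. At 24 h, day 6 and day 14 the intervals held 0, with folds of 0.14, 0.05 and -0.20. Less the trend these were -0.07, 0.45 and -0.28, and the fold on day 6 less the median fold of all genes was 0.31.

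Smyd1, the muscle member, was the lowest of the family in 7 of 10 libraries and the most variable. It has 10 exons in its main transcript and lies on the minus strand at chr6:71163934-71272227. The 2 rows of Smyd1 are transcripts of 3361 and 3322 bases whose reads were equal in 10 of 10 libraries, so they cannot be told apart here and the longer was used. They differ by 39 bases, the length of coding exon 5 in GENCODE M1, of 13 codons, at chr6:71185337-71185375 on the minus strand. That this exon separates the rows was inferred from its length. The exon is shown for this match, in capitals and with 15 bases of the neighbouring exons on each side.
Smyd1 exon 5: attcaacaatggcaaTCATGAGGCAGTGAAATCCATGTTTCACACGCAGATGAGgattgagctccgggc
It makes up 1.16% of the longer transcript.

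In shLuc Smyd1 had an RPKM of 0.320 (6 reads) in ES cells, 2.88 (186) at 24 h, 0.115 (25) on day 6, 1.66 (170) on day 10 and 2.49 (325) on day 14. In shSmyd5 the values were 0.136 (18 reads), 0.732 (103), 0.268 (58), 3.22 (169) and 1.52 (200). With both hairpins it was higher at 24 h than in ES cells and on day 6, and high again on days 10 and 14. The highest and lowest stages lay 25.0-fold apart in shLuc and 23.7-fold apart in shSmyd5. Smyd1 rose from ES cells to day 14 by a log2 fold of 3.19 (standard error 0.97, edgeR adjusted p = 0.0205, higher with both hairpins), which passed in all 8 alternatives. The difference among stages had an adjusted p of 0.0141, and 0.0634 without both libraries of ES cells. In bulk RNA, fewer cells of a type and less RNA per cell cannot be told apart.

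Between the hairpins Smyd1 differed in both directions. Its log2 fold was -0.83 in ES cells (-1.83 to 0.23), -1.84 at 24 h (-2.17 to -1.52), 0.77 on day 6 (0.34 to 1.18), 0.91 on day 10 (0.61 to 1.22) and -0.68 on day 14 (-0.92 to -0.43). Less the trend these were -0.71, -2.003, 1.15, 0.96 and -0.73. On day 10 Smyd1 reached an RPKM of 3, and at the other stages it did not, so there the trend comes from more abundant genes. The shared fold was -0.26, and without both libraries of 24 h it was 0.29.

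The 16 heart and striated muscle genes, Tnnt2, Actc1, Myh6 and Hand2 among them, were set beside Smyd1. Their summed RPKM was 9.48 in shLuc and 7.03 in shSmyd5 in ES cells. It was 3.76 and 4.83 at 24 h, and 9.24 and 7.09 on day 6. At 24 h, 0 of 16 in shLuc and 2 of 16 in shSmyd5 reached an RPKM of 1, the latter Tnni3, a troponin, at 1.25, and Myl7 at 2.27, and 2 and 7 genes had 0 reads. The sum was 77.3 in shLuc and 107.1 in shSmyd5 on day 10, and 203.6 and 137.6 on day 14. So in ES cells and on days 10 and 14 it was higher in the same hairpin as Smyd1. At 24 h and on day 6 it was higher in the other. In ES cells the interval of the Smyd1 fold held 0. Hand2 alone had 59.8 in shLuc and 20.6 in shSmyd5 on day 14, so the sum there leaned on abundant genes. Other marker lists differed too. The 6 fibroblast genes summed to 538.6 in shLuc and 211.2 in shSmyd5 on day 10 and to 3229 and 1832 on day 14, and 4 neural genes to 64.4 and 6.04 and to 32.9 and 6.06. On day 10, 6 of 9 measured muscle genes were at least 1.5-fold higher in shSmyd5 and 1 was lower, beside 26.5% of all genes in either direction. On day 14, 5 of 11 were lower and 0 higher, beside 22.2%. The median log2 fold of the measured muscle genes was 1.09 on day 10 and -0.03 on day 14. Of the 11 tested, 9 rose from ES cells to day 14 (median log2 fold 6.93 over the 11, against 0.03 over all 12277 genes, of which 46.2% were called), 0 fell, and 0 passed the shared test. The largest shared folds were those of Myl7, an atrial myosin light chain (0.78, adjusted p = 0.494), Hand2, a transcription factor of the second heart field (-0.76, adjusted p = 0.661), and Myl4, another atrial light chain (-0.72, adjusted p = 0.796). The part of these cell types in the Smyd1 values was not tested.

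**Figure D3:**
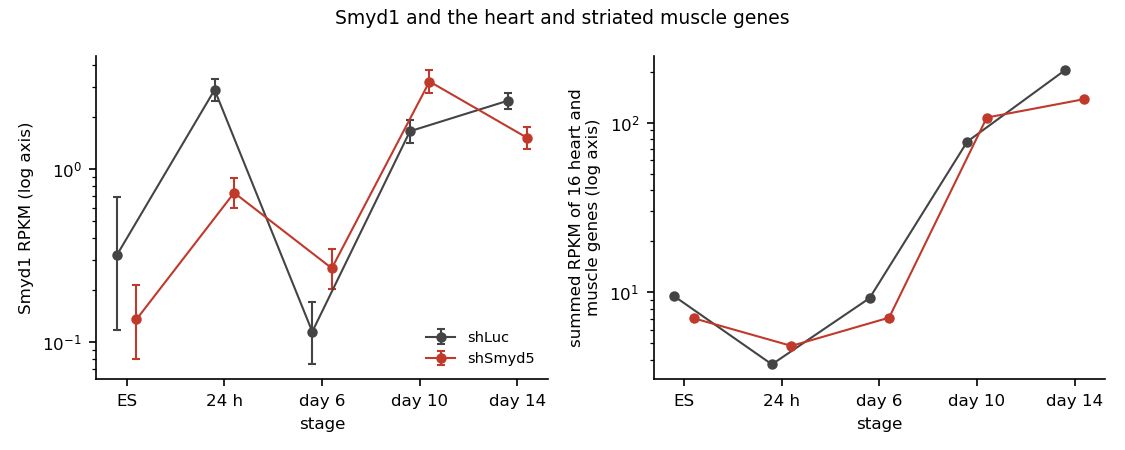
RPKM of Smyd1 (left, log axis, exact Poisson 95% intervals) and summed RPKM of 16 heart and striated muscle genes (right, log axis, no error shown) at each stage in shLuc (grey) and shSmyd5 (red). Smyd1 was at 2.88 in shLuc at 24 h, where the muscle sum was at its lowest, 3.76, and both were high on days 10 and 14.

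Summed over the family, shLuc libraries held 51.5 RPKM in ES cells, 30.8 at 24 h, 32.5 on day 6, 48.3 on day 10 and 34.9 on day 14, and shSmyd5 libraries 22.5, 26.9, 19.8, 31.7 and 30.0. Smyd5 made up 57.8% of the sum in shLuc ES cells, 34.6% at 24 h, 47.3% on day 6, 51.7% on day 10 and 37.6% on day 14. In shSmyd5 its share was 20.02%, 3.32%, 2.48%, 28.8% and 22.9%, and Smyd2 led with 39.7% to 55.5%. Without Smyd5 the sum of the other 4 lay between 17.1 and 26.0 RPKM in all 10 libraries. It was 21.8 and 18.0 in shLuc and shSmyd5 ES cells, 20.2 and 26.0 at 24 h, 17.1 and 19.3 on day 6, 23.3 and 22.5 on day 10, and 21.8 and 23.1 on day 14. It stood above shLuc at 3 stages and below at 2.

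**Figure D4:**
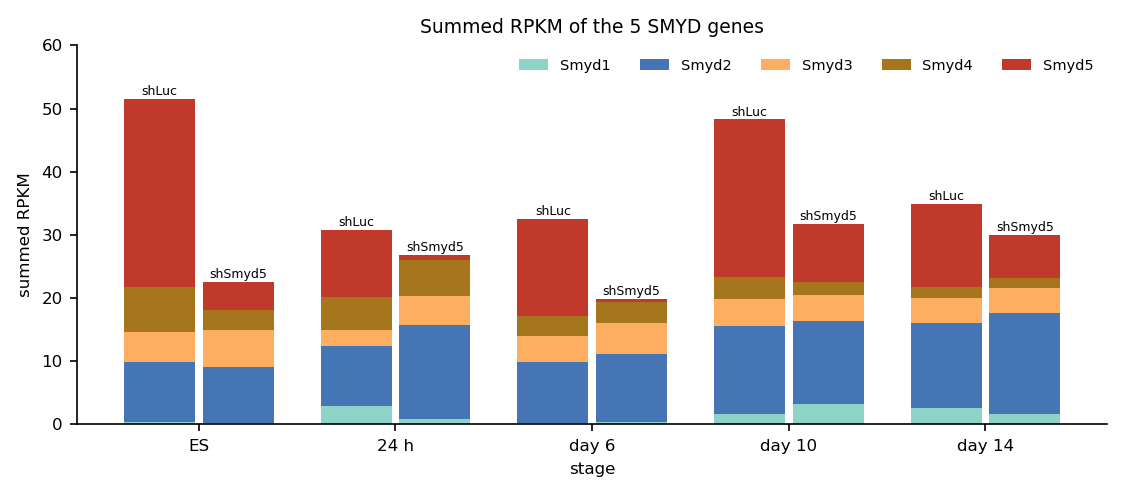
Summed RPKM of the 5 genes (vertical axis, from 0), stacked by gene, in shLuc (left bar) and shSmyd5 (right bar) at each stage, 1 library a bar and no error shown. The Smyd5 segment goes from 57.8% of the bar in shLuc ES cells to 2.48% in shSmyd5 EBs of day 6, while the rest of the bar stays between 17.1 and 26.0 RPKM.

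Among 32 SET domain genes, the 5 members and 27 others with this domain, Smyd5 ranked 5 by RPKM in shLuc ES cells and 19 in shSmyd5 ES cells, and 31 in shSmyd5 EBs of 24 h and of day 6. Smyd1 ranked 32 in 6 libraries. None of the 27 others passed the shared test, and 4 had an unadjusted p under 0.05, beside 1425 of all 12277 genes. The median shared log2 fold of the 27 was -0.15, against -0.01 over all genes tested. Those with the largest shared folds are given next, a choice that favours the same sign at all stages. The largest shared folds were those of Whsc1 (NSD2, a histone H3 lysine 36 dimethyltransferase, -0.58, adjusted p = 0.269, lower in 5 of 5 stages), Whsc1l1 (NSD3, of the same group, -0.57, adjusted p = 0.370, lower in 5 of 5) and Setd8 (the H4 lysine 20 monomethyltransferase, 0.50, adjusted p = 0.307, higher in 5 of 5). The H4 lysine 20 genes Suv420h1 and Suv420h2 had shared folds of -0.11 and -0.30, with adjusted p-values of 0.871 and 0.740.

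Over differentiation 2 of 5 members passed the test among stages, beside 65.3% of all genes tested and 17 of 27 other SET domain genes. Smyd5 did not pass. Its fold between the hairpins ran from -0.92 to -4.71 over the stages, a spread that enters the error of that test. From ES cells to day 14, 1 of 5 members rose and 1 fell, beside 46.2% of all genes called in either direction, and 7 of the 27 rose while 4 fell. Mll5 and Setd7, a histone H3 lysine 4 monomethyltransferase, rose by log2 folds of 3.19 and 3.14, about as far as Smyd1, while Setd4 and Suv420h2 fell, with log2 folds of -2.49 and -1.68. So the members' shares do not stand above the background.

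**Figure D5:**
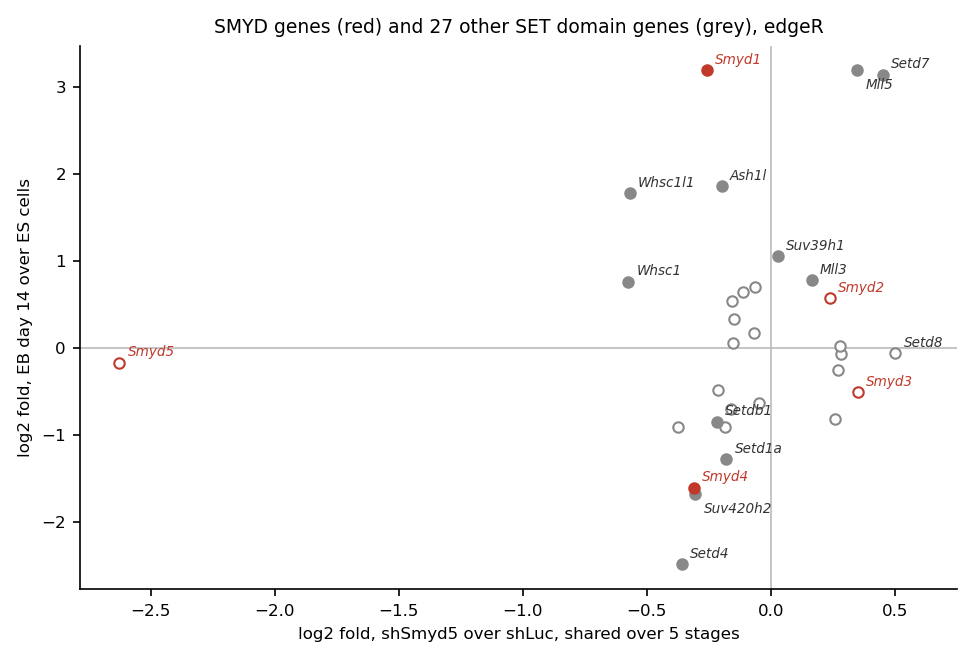
Log2 fold of EB day 14 over ES cells (vertical axis) against the log2 fold of shSmyd5 over shLuc shared over 5 stages (horizontal axis), both from edgeR, for the 5 SMYD genes (red) and 27 other SET domain genes (grey). Filled points passed the day 14 test at an adjusted p of 0.05, and no point passed the shared test. Smyd5 lies at -2.63 on the horizontal axis, and the other 31 lie between -0.58 and 0.50.

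Known partners and substrates of the SMYD proteins were taken next, 14 genes of which 13 were tested. None passed the shared test, and 2 had an unadjusted p under 0.05, beside 1425 of all 12277 genes. Large shared folds were those of Flt1, the VEGF receptor methylated by SMYD3 (0.82, adjusted p = 0.428), and Cbx5, which encodes the heterochromatin protein HP1-alpha (-0.54, adjusted p = 0.287). Flt1 had an RPKM under 0.2 in ES cells and at 24 h, and 3.42, 10.4 and 21.8 in shLuc against 9.28, 22.4 and 40.3 in shSmyd5 on days 6, 10 and 14. Cbx5 was lower in shSmyd5 at 5 of 5 stages, with 29.5, 38.3, 43.2, 78.6 and 37.3 in shLuc and 22.5, 24.9, 23.8, 48.8 and 26.8 in shSmyd5. Its choice by the size of the shared fold favours such agreement of sign. From ES cells to day 14, the SMYD2 substrates Trp53, Hsp90aa1 and Hsp90ab1 fell, with log2 folds of -2.82, -1.70 and -1.72, and Rb1 rose by 2.18. All were past the edgeR threshold, among 7 of the 13 tested in this list, beside 46.2% of all genes tested. The fold of Smyd2 was 0.57 and did not pass.

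The genes whose log2 RPKM followed each member most closely over the 10 libraries were taken from 12276 others. For Smyd5 they included Lrrc49 (Pearson r = 0.98, Spearman rho = 0.98) and Fam118a (0.97, 0.88). Lrrc49 ranged from 2.13 to 2.70 RPKM in shLuc and from 1.08 to 1.89 in shSmyd5, a gap that its choice by likeness to Smyd5 favours. Fam118a ranged from 7.80 to 10.5 in shLuc and from 2.58 to 7.87 in shSmyd5, so its hairpins overlapped. For Smyd4 they were Exosc6 (0.96, 0.89), an exosome subunit, Mars2 (0.95, 0.95), the mitochondrial methionyl-tRNA synthetase, and Ddx39 (0.95, 0.88), an RNA helicase. Smyd1 was followed by Gm9199 (0.97, 0.90), Cdkn1c (0.91, 0.65), a cell cycle inhibitor, and Samd9l (0.88, 0.82). Of these 3 only 1 was among the closest 3 when 1 in place of 0.1 was added to the RPKM. Smyd2 was followed by Letmd1 (0.92, 0.88), Acaa2 (0.91, 0.85) and Inha (0.91, 0.81), and Smyd3 by Eif4ebp3 (0.94, 0.68), Usp21 (0.92, 0.90) and Rpl3 (0.91, 0.78). Among the members themselves r ran from -0.64 (Smyd1 with Smyd3) to 0.57 (Smyd1 with Smyd2) over 10 pairs. The libraries share hairpins, stages, depth and the GC trend, and the closest of 12276 genes must lie close, so these values are a description without a test.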

How the data were processed

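R1 ES cells and EBs were sequenced as 1 polyA library per hairpin and stage. Per the labels, the authors mapped reads to mm9 with Bowtie2 and CASAVA, and deposited read counts and RPKM for each RefSeq transcript. Their versions are not given in the sources used here. Counts and RPKM matched through length and a library size within 1% in 100% of values of at least 200 reads. For each symbol the transcript with most reads was kept. The shared effect, the stage test and day 14 over ES cells were fitted with edgeR 4.0.16 (R 4.3.3) as stage plus hairpin. limma 3.58.1, DESeq2 1.42.0, other filters, scalings, pseudocounts and leaving out a stage were tried beside it. GC content, positions and sequences came from GENCODE M1 on NCBIM37, with Biopython 1.88 for alignments. Depth per library bounds each interval given. The text names all members, the 3 genes most alike to each, and in each list the genes that passed the shared test or had its 3 largest folds. Some genes this rule names are not reported here. Further list genes were chosen after their values were seen. The members and lists were chosen with earlier results of these data known. The tests were checked on simulated data.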

Additional observations from a re-analysis of the deposited data

Results flagged for a closer look

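Smyd1 differed between the hairpins in opposite directions at different stages. Its log2 fold of shSmyd5 over shLuc was -1.84 at 24 h and -0.68 at day 14, but 0.77 at day 6 and 0.91 at day 10. All 4 were over 1.5-fold with counting intervals that did not hold 0, but only day 10 met the RPKM minimum of 3. With 1 in place of 0.1 added to the RPKM they were -1.16, -0.47, 0.19 and 0.66, so those of day 14 and day 6 were then under 1.5-fold. There was 1 library per hairpin and stage, so the difference among the stages was not tested. The reads behind these folds were 186 and 103 at 24 h, 25 and 58 at day 6, 170 and 169 at day 10, and 325 and 200 at day 14, in shLuc and shSmyd5.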

How the results depend on the processing

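The count of genes with a shared effect of shSmyd5, 0 in edgeR, was 333 with DESeq2 and 163 without the filter on low values, and from 0 to 6 without both libraries of 1 stage. Smyd5 itself had a shared log2 fold of -2.67 with DESeq2 and -2.58 without the filter, past the threshold in both, and from -3.11 to -2.14 without 1 stage. The cause was not tested. With a pseudocount of 1 the folds of Smyd5 were -2.48 in ES cells, -2.63 at 24 h and -3.46 at day 6, by construction nearer 0. Less the trend on GC content and length they were -2.16, -4.02, -4.37, -1.23 and -1.12 in stage order, and the genes at least 1.5-fold different numbered 1733 in place of 3990 in ES cells and 2147 in place of 3349 at 24 h. With that trend removed the fold of Smyd2 at 24 h turned to -0.088, and its small folds in ES cells and on day 10 turned too, to 0.40 and 0.11, and the shared fold of Smyd1, -0.26, ran from -0.72 to 0.29 without both libraries of 1 stage, the last without 24 h. The stage and day 14 counts stayed within 1.5 times. The stage paired the hairpins in the edgeR test. Without this pairing the shared fold of Smyd5 was -2.16 with an unadjusted p of 0.0063 and an adjusted p of 1.00, and 0 genes were called, with 147 at an unadjusted p under 0.05. Depth limits Smyd1 most, with 6 reads in shLuc ES cells.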
